A study of Sus scrofa with 12 samples.

Results

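Gene expression in vitrified pig blastocysts was set against that of fresh ones, gene by gene. The comparison uses 5 of the 11 libraries of the study with a column in the deposited table, namely 2 of the vitrification group and 3 of the fresh control, and 9411 of the 31781 genes listed. The genes kept reached an FPKM (fragments per transcript length, scaled by the mapped total of a library) of at least 1 in at least 3 of the 11 libraries. The third vitrification library was not analysed here. All embryos were blastocysts of the pig (Sus scrofa) made by parthenogenetic activation, in which an egg starts to divide without sperm, so every group shares a genome of maternal origin alone. The fresh control was not vitrified. The study also has 2 further vitrified groups of 3 libraries each, vitrification I and vitrification II, called group I and group II where values stand side by side. What set the 3 vitrification procedures apart is not given in the labels, nor for which of them the liquid helium in the title of the series was used. They name blastocyst as the source but describe sorted single cells in the Smart-Seq2 protocol, which amplifies cDNA from very small inputs. Whether a library holds 1 cell or an embryo is therefore not settled, nor whether replicates came from separate embryos, and a p-value here reflects library-to-library spread that could be technical alone.

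Vitrification cools cells so fast, in concentrated cryoprotectant, that water turns to a glass in place of ice. Embryos are exposed to osmotic, oxidative and chilling stress on the way, and mitochondria, membranes and the cytoskeleton are known sites of damage. A blastocyst has an outer epithelium, the trophectoderm, which pumps ions and water into the cavity and later attaches to the uterus, and an inner cell mass that gives epiblast and hypoblast.

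Of the 8 trophectoderm markers with an identifier all were above an FPKM of 1 in all 5 libraries. TEAD4 was at 7.6 to 17.7 FPKM in the controls and at 2.65 and 7.27 after vitrification. TEAD4 and TFAP2C, given further on, lay below every control in both vitrification libraries (as did 11.5% of all genes). The other markers overlapped between the groups. KRT8 and KRT18, the keratins of simple epithelium, stood at 4091 to 12861 and 2202 to 4806 FPKM, and GATA2 and GATA3, transcription factors of trophectoderm, at 10.96 to 50.8 and 21.1 to 42.6, while TEAD4 (2.65 to 17.7), ELF3 (3.66 to 10.3) and CDX2 (1.64 to 4.65) were lower. Of the cumulus and granulosa markers, HAS2, PTX3, INHA and AMH were at 0 in every library, and the summed level of the 7 with an identifier was 0 to 0.140 in the controls and 0.191 to 0.361 in the vitrification libraries. Among leukocyte and erythroid markers PTPRC, CSF1R, TYROBP and ALAS2 were at 0 throughout, while the summed level of all 10 was 20.2 in control 1 and 14.9 in vitrification 2 against 1.02 to 2.66 in the other 3 libraries. Their part in any result was not tested. Of 8 maternal oocyte markers GDF9 alone passed an FPKM of 2, at 4.37 to 7.59. Whether a library holds 1 cell or an embryo is not settled. Differences in the type or number of cells and in RNA per cell therefore cannot be told apart.

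Libraries of a group differed among themselves. Controls 2 and 3 were alike, with a Pearson correlation across genes of 0.978, whereas control 1 had 0.924 and 0.930 with them, and vitrification 1 and 2 had 0.928 with each other. More genes were detected at any level in the vitrification libraries, 18527 and 17726, than in the controls, 15383 to 16046. Genes encoded by the mitochondrial genome held 51.8% of summed FPKM in vitrification 2 and 38.7% in vitrification 1, against 37.6% to 43.9% in the controls. Ribosomal protein genes held 3.39% in vitrification 2 and 6.48% in vitrification 1, against 4.78% to 6.76%. With 2 against 3 libraries an exact permutation test cannot go below p = 0.10, so none of 12 such library measures could pass. Sequencing depth is unknown, because the files hold no counts.

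Of the 9411 genes, 129 were called different at an adjusted p under 0.05, which is 1.37%. There were 118 higher in the vitrification group (1.25%) and 11 lower (0.117%). In all 129 the libraries of the groups did not overlap, but non-overlap was common over all genes, with every vitrification library above every control for 25.5% and below for 11.5%. At an unadjusted p under 0.05, 15.2% were higher and 2.96% lower. The median gene was 0.19 higher on the log2(FPKM + 1) scale, so each log2 change below is given relative to that median, while each test is of the change before that subtraction. This scale understates the change of genes with a low level.

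Genes called higher mostly had low values in the controls. Their median level was 1.14 FPKM in the controls and 7.92 in the vitrification group, 100 of the 118 were under 5 FPKM in every control, and 43 were under 1. Genes under 1 FPKM in every control, 1412 of all 9411, could pass the filter only through vitrified libraries, which favours higher over lower calls at that level. The 11 genes called lower had a median of 51.4 FPKM in the controls and 2.99 after vitrification, and 8 of them exceeded 10 FPKM in every control. Relative changes ran from 1.16 to 3.31 among the genes called higher and from -5.16 to -1.92 among those called lower. Of the genes called higher, 96 had their higher value in vitrification 2, as did 6442 of all 9411 genes. Over all genes the relative change also moved with level, from a median of 0.21 for the 1383 genes at the bottom (mean log2 level under 1) to -0.56 for the 747 at the top (over 6). It moved with the genomic span of the gene too, from -0.24 for the shortest 1907 genes to 0.30 for the longest 1908. Their part in the results below was not tested.

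**Figure D1:**
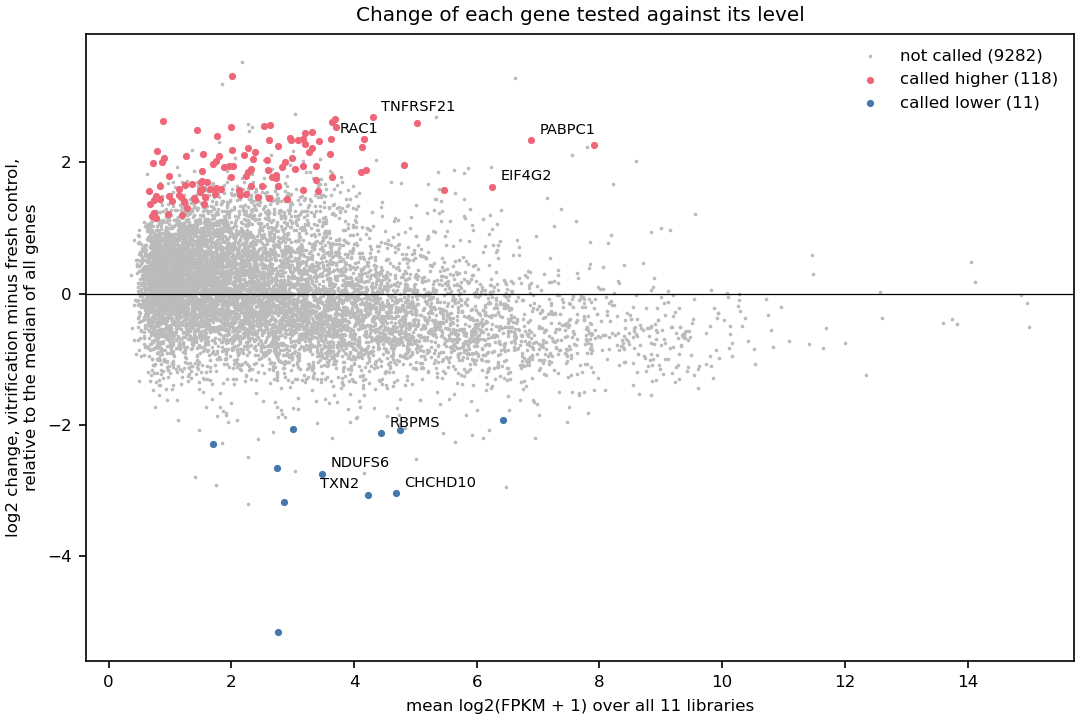
Each point is 1 of the 9411 genes, by its mean log2(FPKM + 1) over the 11 libraries and its log2 change in vitrification relative to the median of all genes. The 118 genes called higher lie mostly at the left, at low levels, and the 11 called lower lie below -1.9, while the grey points drift downward to the right.

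The calls depended on single libraries. Without control 2 no gene was called, although 1250 genes had an unadjusted p under 0.05, and in a fit to these 5 libraries alone no gene was called either, with 1861 genes at that unadjusted p. Without vitrification 2 the calls were NAA11 and a gene with no symbol, which are named here because only these 2 remained. Without control 3 there were 30 calls, and 222 without vitrification 1. Among libraries of the other groups, which share the estimate of the spread, the count was 194 without vitrification I replicate 3, and 69 or 78 when replicate 2 or replicate 3 of vitrification II was left out. All 129 genes kept their direction under each of the 19 alternative settings. As their libraries did not overlap between the groups, leaving out a library could not change it. The share of calls that were higher was 91.5%, and became 96.5% of 172 calls when FPKM was rescaled to the total outside the mitochondrial genome and 70.4% of 98 calls after quantile normalization, which makes the distributions of all libraries equal.

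Among the largest rises were members of the lists for the secretory pathway. Proteins bound for the membrane or the outside are threaded into the endoplasmic reticulum (ER), given sugar chains, folded, and sent on in coated vesicles to the Golgi. EDEM1 (ENSSSCG00000034197), which marks misfolded glycoproteins for degradation, was at 0.577, 1.77 and 2.75 FPKM in controls 1, 2 and 3 and at 10.5 and 24.5 in vitrification 1 and 2. Its relative log2 change was 2.57 ± 0.47 (SE) with an adjusted p of 0.0174. SEC24D, a cargo-binding subunit of the vesicle coat that leaves the ER, was at 0.562, 1.11 and 4.00 FPKM in the controls and at 10.5 and 24.3 after vitrification. That is a change of 2.56 ± 0.51 with an adjusted p of 0.0215.

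HYOU1, an ER chaperone of the HSP70 family, had control values of 1.81, 3.60 and 7.98 FPKM and vitrification values of 20.5 and 41.9, a change of 2.45 ± 0.53 (adjusted p = 0.0296). B4GALT5 (ENSSSCG00000007465), a Golgi enzyme that makes lactosylceramide, was at 3.38 to 5.89 FPKM in the controls and at 29.5 and 49.1 after vitrification. It rose by 2.66 ± 0.42 with an adjusted p of 0.0118. The other called members of the secretory lists, beside ATF5 given further on, were EDEM3, a relative of EDEM1, with a change of 2.06, and STT3B, a catalytic subunit that transfers sugar chains, with 2.22. For each of these 6 genes vitrification 2 was the highest library and control 1, or for B4GALT5 control 3, the lowest.

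SLC7A8 (ENSSSCG00000002032), a carrier of neutral amino acids, was at 8.97, 10.2 and 12.99 FPKM in the controls and at 44.7 and 139 in the vitrification libraries. Its change was 2.60 ± 0.47 (adjusted p = 0.0174). TNFRSF21 (ENSSSCG00000001727), the death receptor DR6, was at 7.27, 4.28 and 10.2 FPKM in the controls against 41.8 and 77.4, a change of 2.69 ± 0.49 (adjusted p = 0.0174). The controls of SLC7A8 lay closer together than those of TNFRSF21, and vitrification 2 was the highest library for both genes.

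SCNN1A encodes the alpha subunit of the epithelial sodium channel, through which the trophectoderm can take up sodium. It was near 0 in fresh embryos, with 0.839, 0.231 and 0.194 FPKM, and at 8.65 and 7.68 after vitrification, a change of 2.53 ± 0.48 (adjusted p = 0.0195). ATP2A2, the pump that returns calcium to the ER, rose by 2.33 ± 0.46 from 1.55 to 2.88 FPKM in the controls to 9.43 and 31.1 (adjusted p = 0.0214). LAMC1, the gamma-1 chain of laminin in basement membranes, rose by 2.33 ± 0.47 from 1.03 to 2.73 FPKM to 10.8 and 18.2 (adjusted p = 0.0217). HSD17B1, which converts oestrone to oestradiol and belongs to the oestrogen synthesis of the elongating pig conceptus, was at 0.213 to 0.783 FPKM in the controls and at 5.15 and 5.45 after vitrification. Its change of 1.92 ± 0.38 had an adjusted p of 0.0214. DSP, the desmosomal plaque protein desmoplakin, was at 3.80 to 4.64 FPKM and at 11.2 and 19.8 (1.44 ± 0.38, adjusted p = 0.0499).

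PABPC1 (ENSSSCG00000006063), which coats poly(A) tails in the cytoplasm, was the most abundant gene with a symbol among those named as rises, at 66.5, 40.2 and 56.2 FPKM in the controls and at 399 and 242 after vitrification. Its change was 2.34 ± 0.39 (adjusted p = 0.0129), and here vitrification 1 was the higher library. EIF3F, a subunit of the initiation factor eIF3, was at 2.58, 3.07 and 7.83 FPKM in the controls and at 33.8 and 34.7 after vitrification (2.62 ± 0.44, adjusted p = 0.0129).

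EIF4G2, an initiation factor that works without the cap-binding protein, was at 23.4, 16.6 and 27.4 FPKM in the controls and at 77.4 and 82.4 after vitrification (1.63 ± 0.36, adjusted p = 0.0283). PCBP2, which binds C-rich RNA, rose by 2.36 ± 0.51 from 3.32 to 6.46 FPKM to 21.2 and 43.5 (adjusted p = 0.0283).

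RAC1 (ENSSSCG00000035090), a small GTPase that drives actin at the cell edge, was at 3.48, 3.95 and 4.40 FPKM in the controls and at 28.3 and 26.9 after vitrification (2.35 ± 0.36, adjusted p = 0.0118). NCK2, an adaptor between tyrosine kinases and actin, was at 0.445, 0.252 and 0.495 FPKM and at 5.83 and 5.71 (2.09 ± 0.34, adjusted p = 0.0118). PPP2CB, a catalytic subunit of the phosphatase PP2A, was at 2.73 to 4.22 FPKM and at 19.2 and 23.0 (2.16 ± 0.38, adjusted p = 0.0145). In these 3 genes the vitrification libraries lay close to each other and far above the controls.

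DUSP5, a nuclear phosphatase of the MAP kinase ERK, was at 4.37, 1.77 and 1.05 FPKM in the controls and at 28.4 and 11.8 after vitrification (2.45 ± 0.54, adjusted p = 0.0296). BTBD2 was at 0.709 to 1.63 FPKM and at 14.7 and 10.2 (2.39 ± 0.48, adjusted p = 0.0217). CAPNS1, the small subunit of calpains, calcium-dependent proteases that take part in membrane repair, was at 5.33, 5.85 and 15.8 FPKM and at 59.95 and 37.3 (2.24 ± 0.53, adjusted p = 0.0408). These 3 were higher in vitrification 1 than in vitrification 2.

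The 15 largest rises reported were B4GALT5, EDEM1, SEC24D, HYOU1, SLC7A8, TNFRSF21, SCNN1A, ATP2A2, LAMC1, PABPC1, EIF3F, PCBP2, RAC1, DUSP5 and BTBD2. All 15 lost their call without control 2, where their adjusted p ran from 0.0762 to 0.127, and without vitrification 2, where it ran from 0.0648 to 0.412. Without control 1, control 3 and vitrification 1, 14, 10 and 13 of them were called. Over the 19 alternatives their adjusted p ran from 0.000482 to 0.412, and 14 of the 15 were called after quantile normalization, DUSP5 being the exception. Of 11 other list members called with smaller changes, none was called without control 2 or vitrification 2, 2 without control 1, 1 without control 3 and 8 without vitrification 1.

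**Figure D2:**
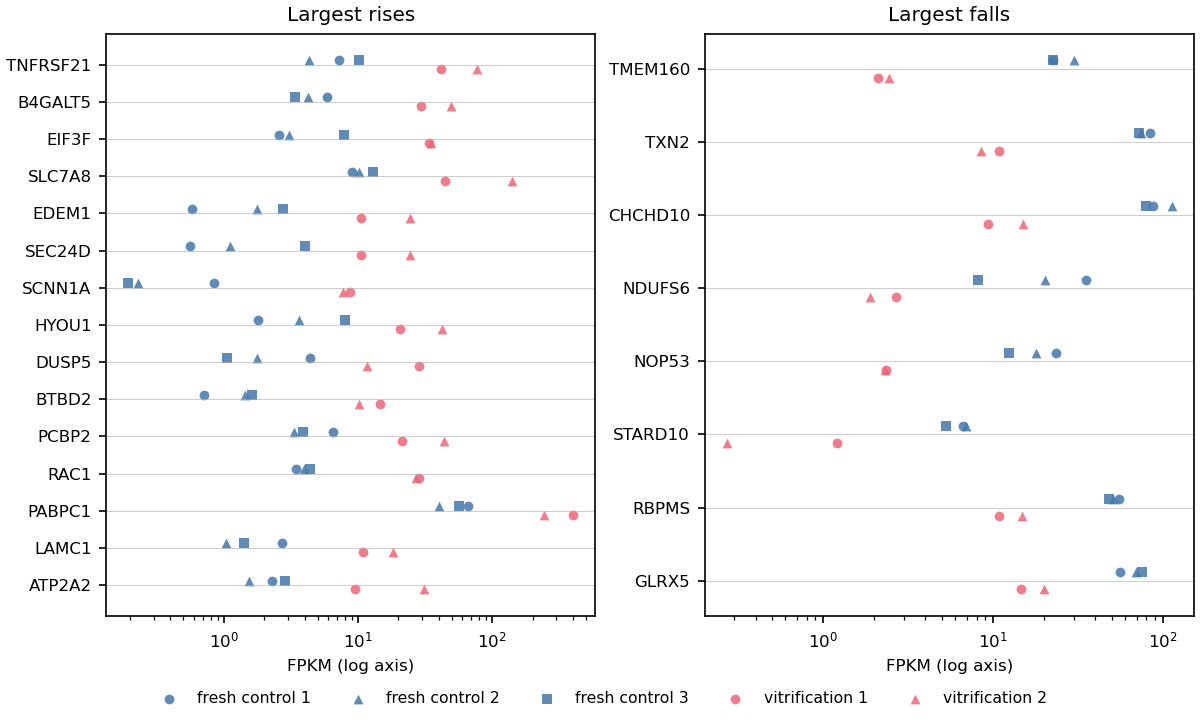
FPKM on a log axis in each of the 3 control libraries (blue) and 2 vitrification libraries (red) for the 15 largest rises reported (left) and 8 largest falls (right). The red and blue points do not overlap in any gene shown, as the rule for naming required, and most rises start from under 10 FPKM.

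Only 8 genes with a symbol met the rule for the largest falls. TXN2, CHCHD10, NDUFS6 and GLRX5 are among those that encode mitochondrial proteins, but the share of such genes over all genes tested was not counted. TXN2 (ENSSSCG00000000144), the mitochondrial thioredoxin, which keeps protein thiols reduced and feeds peroxiredoxin, was at 84.1, 74.0 and 72.5 FPKM in the controls and at 10.9 and 8.47 after vitrification. Its relative change was -3.06 ± 0.41 (adjusted p = 0.0118). CHCHD10 (ENSSSCG00000010073), a protein of the space between the mitochondrial membranes, was at 87.4, 112 and 79.8 FPKM in the controls and at 9.40 and 15.1 (-3.04 ± 0.45, adjusted p = 0.0129). Both were called under 16 of the 19 alternatives.

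NDUFS6, a subunit of respiratory complex I, was at 35.2, 20.2 and 8.13 FPKM in the controls and at 2.70 and 1.88 after vitrification (-2.74 ± 0.60, adjusted p = 0.0495). Its control values were spread widely and its call held under 6 alternatives. GLRX5, a glutaredoxin needed to assemble iron-sulfur clusters, was at 55.8, 69.2 and 75.6 FPKM and at 14.5 and 20.1 (-2.08 ± 0.43, adjusted p = 0.0439). TMEM160 was at 22.6 to 30.1 FPKM and at 2.10 and 2.44 (-3.18 ± 0.68, adjusted p = 0.0439).

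The remaining falls had other roles. NOP53, a factor of ribosome assembly, was at 23.6, 17.9 and 12.4 FPKM in the controls and at 2.35 and 2.31 after vitrification (-2.65 ± 0.48, adjusted p = 0.0273). RBPMS, an RNA-binding protein, was at 55.0, 50.9 and 48.4 FPKM and at 10.8 and 14.7 (-2.13 ± 0.40, adjusted p = 0.0296). STARD10, a phospholipid transfer protein, was at 5.26 to 6.89 FPKM and at 1.21 and 0.271 (-2.30 ± 0.46, adjusted p = 0.0408). In each of the 8 genes both vitrification values lay below the lowest control, which was a condition for naming them. Without control 2 none of the 8 was called (adjusted p 0.0762 to 0.159), nor without vitrification 2 (0.0994 to 0.434), and 2, 4 and 3 were called without control 1, control 3 and vitrification 1. Over the 19 alternatives their adjusted p ran from 0.00214 to 0.434.

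Beyond these calls, nuclear genes for mitochondrial proteins lay low together. The respiratory chain is built from many nuclear genes and 13 genes of the mitochondrial genome. All 33 nuclear genes of complex I were below the median of all genes, by a median of -0.93, and 26 of them (against 11.5% of all genes) were lower in both vitrification libraries than in any control. NDUFS6 alone was called (against 0.117% of all genes called lower), and 12 were lower at an unadjusted p under 0.05 (against 2.96% of all genes). All 13 genes of complexes II and III were below the median as well, by a median of -1.19. None was called, 10 were lower at the unadjusted p (against 2.96% of all genes), and 11 lay below every control (against 11.5%). Levels were high in these lists, with control medians of 179 FPKM for complex I and 340 for complexes II and III. Of the 747 genes tested with a mean log2 level over 6, 210 lay below every control, and their relative median was -0.56. The part of level in the low values of these lists was not tested. CYC1, the heme-bearing cytochrome c1, was at 281, 451 and 290 FPKM in the controls and at 82.5 and 80.6 after vitrification, with an adjusted p of 0.0515.

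The separation was not equal across complexes or libraries. For complex I, control libraries had list medians of -0.01 to 0.04 around the control mean, against -0.58 in vitrification 1 and -1.31 in vitrification 2. For complexes II and III, control 1 itself was at -0.40, with -0.80 and -1.66 in the vitrification libraries. For the 13 nuclear genes of ATP synthase the median was -0.84, but control 1 was at -0.39, lower than vitrification 1 at -0.22, so this list overlapped between groups. The 10 genes kept of 11 for complex IV gave -0.72, with control 1 at -0.25 and vitrification 1 at -0.28. After quantile normalization the medians of these 4 lists were smaller, at -0.36, -0.65, -0.20 and -0.17, in the same order of complex I, II and III, ATP synthase and IV.

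The 64 mitochondrial ribosomal protein genes were all below the median of all genes, by a median of -0.68 (-0.39 after quantile normalization), and 31 lay below every control (against 11.5% of all genes). None was called, and 8 were lower at an unadjusted p under 0.05 (against 2.96%). Their list median was -0.09 to 0.13 in the controls, -0.41 in vitrification 1 and -0.98 in vitrification 2. The median control level of the list was 32.0 FPKM. Of the 1350 genes tested with a mean log2 level from 4 to 6, 303 lay below every control, and their relative median was -0.34. MRPL57 was at 13.1 to 32.4 FPKM in the controls and at 6.62 and 5.85, with an adjusted p of 0.0654. Of 35 genes kept for mitochondrial import and inner membrane folds, 32 lay below the median of all genes, with a list median of -0.66 (-0.27 after quantile normalization). CHCHD10 was the 1 called (against 0.117% of all genes called lower). Import and mitochondrial ribosome lists stayed below the median of all genes under all 19 alternatives, as did the 4 respiratory lists. Alternatives that left out libraries of the other vitrified groups, or fitted these groups alone, could not change a list median.

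The genes of the 13 proteins encoded by the mitochondrial genome lay closer to all genes. Their median was -0.15, none was called, and 4 of 13 were above every control in both vitrification libraries, a share near the 25.5% of all genes. COX1, the catalytic subunit of complex IV, was at 18024, 21738 and 18702 FPKM in the controls and at 30631 and 30866 after vitrification (adjusted p = 0.320). ND5, a subunit of complex I, was at 2551, 2969 and 3965 FPKM and at 5733 and 4943 (adjusted p = 0.216). The difference between mitochondrial and nuclear genes was not tested, and neither was a link to the mitochondrially encoded share of FPKM, which was 51.8% in vitrification 2.

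**Figure D3:**
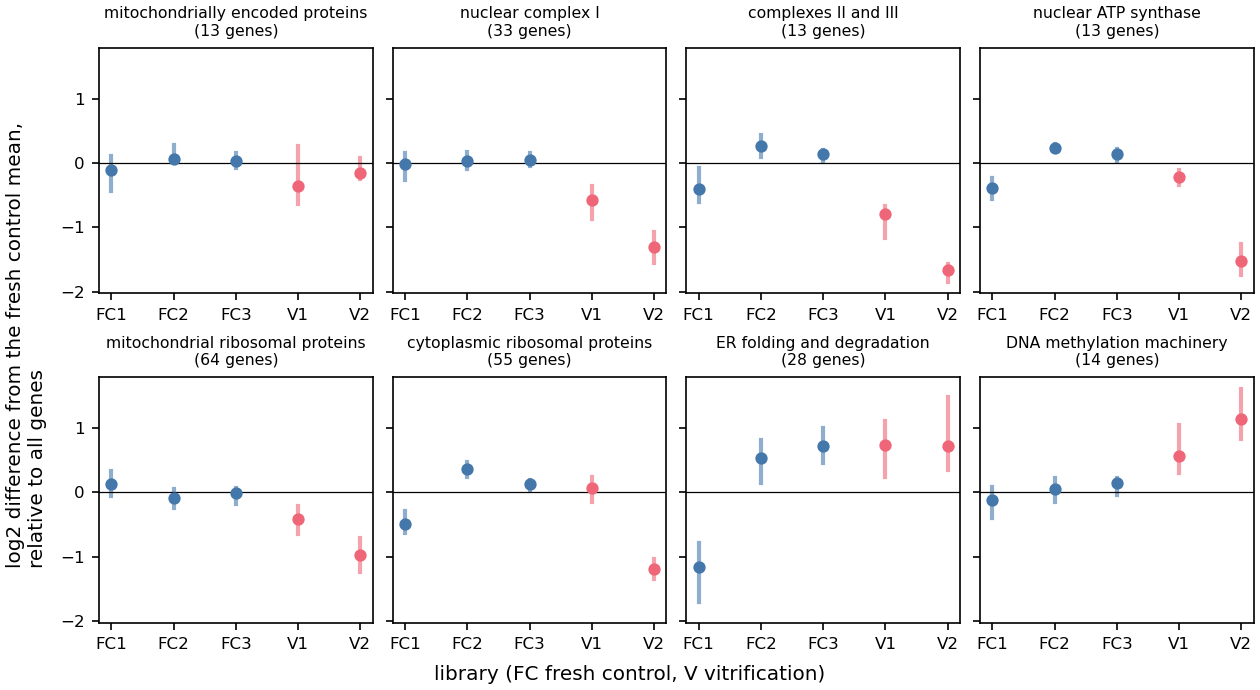
Median (point) and interquartile range (bar) over the genes of 8 lists of the log2 difference from the control mean, relative to all genes, in fresh control (FC) and vitrification (V) libraries 1 to 3 and 1 to 2. Nuclear complex I and mitochondrial ribosomal proteins are at -0.58 or -0.41 and below in V1 and V2 and near 0 in the controls, while ER folding genes are at -1.16 in FC1 and between 0.53 and 0.74 in the other 4 libraries.

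Cytoplasmic protein synthesis did not separate the groups. The 55 cytoplasmic ribosomal protein genes had a median of -0.57, but their list median was 0.06 in vitrification 1 and -1.19 in vitrification 2, and it turned to 0.04 after quantile normalization. None was called. How reads matching several near-identical genes were assigned is not given in the sources used here, so values of this family, which has many processed copies in the genome, are uncertain. Translation initiation and elongation factors had a median of -0.15 (0.07 after quantile normalization). EIF3F and EIF4G2 were called higher among 47 genes (against 1.25% of all genes). The proteasome list, for the complex that degrades tagged proteins, gave -0.62 (-0.19 after quantile normalization) with none of 41 called. Its vitrification 1 value of -0.22 lay close to control 3 at -0.14.

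Among lists of the secretory pathway, 1 control library set much of the difference. The 28 genes of ER folding and degradation had a median of 0.78, with 26 above the median of all genes. EDEM1, HYOU1 and EDEM3 were called higher (against 1.25% of all genes). But controls 2 and 3 had list medians of 0.53 and 0.71, much the same as 0.74 and 0.72 in the vitrification libraries, and control 1 stood at -1.16. Without control 1 the list median was -0.10, EDEM1 was still called, and HYOU1 and EDEM3 were not. HSPA5, the main ER chaperone and a member of the fixed genes, was likewise lowest in control 1, with 121, 500 and 983 FPKM in the controls and 905 and 833 after vitrification (adjusted p = 0.345).

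The other secretory lists varied in how far they shared this. The unfolded protein and integrated stress response list had a median of 0.33 and 1 call of 19, ATF5, a transcription factor of that response, at 0.0789 to 0.283 FPKM in the controls and 1.86 and 2.45 after vitrification (1.21 ± 0.30, adjusted p = 0.0408). ATF4, its central factor, was at 21.3, 126 and 112 FPKM in the controls and at 125 and 131. The COPII and COPI coats had a median of 0.22, which became -0.03 without control 1, and ER translocation and N-glycan transfer 0.06, which became -0.12, while both were 0.60 after quantile normalization. The 23 Golgi glycosyltransferase and sugar transport genes kept of 32 were at 0.34 and 0.81 in the vitrification libraries and at -0.23 to 0.09 in the controls, and B4GALT5 was the 1 called. Lysosome and autophagy genes had a median of -0.01 (0.29 after quantile normalization) and no call among 38. The single calls, ATF5 and B4GALT5, stand against 1.25% of all genes called higher.

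The list for attachment and conceptus signalling covers integrins, growth factor receptors and enzymes by which the conceptus meets the uterus. Of 33 members, 22 were kept and had a median of 0.83 (1.76 with a pseudocount of 0.1), with list medians of -0.09 to 0.13 in the controls and of 0.48 and 1.37 in vitrification 1 and 2. Its median level in the controls was 1.00 FPKM, and members that low could pass the filter through vitrified libraries in which they are high, which favours positive values. The same applies to low genes of the other lists with members left out. Of the 22, 12 were above every control in both vitrification libraries (against 25.5% of all genes). So were 938 of the 2681 genes tested at mean log2 levels of 1 to 2, and 560 of 1383 under 1. At an unadjusted p under 0.05, 13 of the 22 lay higher (against 15.2%). Among them were EGFR, FGFR2, ITGAV, ITGA5, ITGB6 and PTGS2, which are named after their values were seen. HSD17B1 was the 1 called. The 10 water and ion transport genes kept of 19 held 2 higher calls, SCNN1A and ATP2A2 (against 1.25% of all genes). The list median of 0.45 was 0.20 without vitrification 2 and 0.99 without vitrification 1. It was 1.28 with a pseudocount of 0.1 and 1.36 with a filter on every library of 1 of the groups. Amino acid and sugar transporters had a median of 0.26 over 17 genes kept of 25, with SLC7A8 called. The 10 hypoblast genes kept of 19 had a median of 0.63, which came mostly from vitrification 2 (1.34, against 0.08 in vitrification 1), and LAMC1 was called. HSD17B1, SLC7A8 and LAMC1 were single calls in their lists, against 1.25% of all genes called higher.

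No transcription factor in the trophectoderm, epiblast and hypoblast lists was called. The 15 trophectoderm transcription factors kept had a median of 0.24 that became -0.06 without control 1. KLF5 was at 23.0 to 31.4 FPKM in the controls and at 65.1 and 91.9 after vitrification (adjusted p = 0.0761), and MSX2 at 1.83 to 2.75 and at 5.36 and 11.3 (adjusted p = 0.0731). TFAP2C, a defining marker of trophectoderm, was at 23.3, 34.6 and 39.8 FPKM and at 8.82 and 13.9. It was the 1 member lower at an unadjusted p under 0.05 and is named for that. CDX2 was at 1.64 to 3.71 FPKM in the controls and at 2.49 and 4.65, and the libraries overlapped. The 10 epiblast and pluripotency genes kept of 14 had a median of -0.18, with -0.43 in vitrification 1 and -0.10 in vitrification 2. None was called. At an unadjusted p under 0.05, 3 were lower (against 2.96% of all genes) and 1 higher (against 15.2%). LIN28A was at 6.44 to 9.50 FPKM and at 3.08 and 0.831 (adjusted p = 0.110). NANOG was at 0.193 to 0.952 FPKM in 3 controls, 0.167 in vitrification 1 and 7.97 in vitrification 2. Simple keratins and junctions had a median of 0.14, with DSP called of 26 (against 1.25% of all genes called higher).

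Of the lists on chromatin, DNA methylation had the highest median. All 14 genes kept of 19 in the DNA methylation list, which holds enzymes that write, erase and read methylated cytosine, were above the median of all genes, with a median of 0.88 and 11 not overlapping with the controls (against 25.5%). At an unadjusted p under 0.05, 10 were higher (against 15.2%). TRIM28, a corepressor that protects imprinted marks together with zinc finger proteins, was the 1 called, at 2.44, 2.62 and 4.81 FPKM in the controls and 13.2 and 17.5 after vitrification (1.77 ± 0.45, adjusted p = 0.0459). DNMT1, which copies methylation at replication, was at 0.785 to 1.34 FPKM and at 1.52 and 7.35 (adjusted p = 0.254), and DNMT3A, which sets new marks, at 1.01 to 2.27 and at 2.89 and 6.63 (adjusted p = 0.221). The list medians were -0.11 to 0.14 in the controls, 0.56 in vitrification 1 and 1.14 in vitrification 2. The median control level of the list was 2.40 FPKM. At low levels, values above every control were commoner than over all genes. They were seen in 938 of the 2681 genes at mean log2 levels of 1 to 2, and in 560 of 1383 under 1. The part of level in this list was not tested.

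The 40 histone modifier and remodeller genes kept of 53 had a median of 0.45, with 17 higher at the unadjusted p (against 15.2% of all genes), and list medians of 0.31 and 0.63 in vitrification 1 and 2. ARID1A, a subunit of the BAF remodelling complex, was called, at 0.909 to 1.44 FPKM and at 4.87 and 8.42 (1.60 ± 0.40, adjusted p = 0.0439). IGF2R, which clears the growth factor IGF2 and is imprinted in many mammals, was called among 6 imprinted genes kept of 14, at 0.873, 1.08 and 1.06 FPKM and at 4.14 and 7.92 (1.57 ± 0.39, adjusted p = 0.0412). ESPL1, the protease separase that lets sister chromatids part, was called among 39 genes of replication and mitosis, at 0.123 to 0.441 FPKM and at 2.26 and 4.09 (1.46 ± 0.38, adjusted p = 0.0475). These 4 calls, TRIM28 included, came from genes with low levels in the controls. Each was the only call of its list, against 1.25% of all genes called higher. At mean log2 levels under 3, all genes tested had positive relative medians, from 0.06 to 0.23. Most splicing genes were closer to the median, with a list median of -0.17 (0.11 after quantile normalization) and none of 41 called.

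In the lists for stress, repair and cell death the called genes were TXN2, CAPNS1 and TNFRSF21. The cold-inducible RNA-binding proteins overlapped between the groups, with RBM3 at 160 to 243 FPKM in the controls and at 214 and 219, and CIRBP at 2.32 to 7.18 and at 6.30 and 7.49. Heat shock chaperones had a median of 0.00 and no call among 22. BAG3, a cochaperone, was at 2.93 to 4.90 FPKM and at 11.6 and 8.76 (adjusted p = 0.167), and HSPA8 was at 914 to 1493 and at 1038 and 743 (adjusted p = 0.586). TXN2 was the 1 called of 29 genes of the thioredoxin and glutathione systems (against 0.117% of all genes called lower). SOD1, SOD2 and GPX1 were not called and overlapped between the groups, and CAT, which breaks down hydrogen peroxide, was at 35.6 to 61.2 FPKM and at 22.4 and 22.2 (adjusted p = 0.393).

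Plasma membrane repair genes had a median of -0.23 (-0.02 after quantile normalization, 0.14 without vitrification 2) with CAPNS1 called of 24. Apoptosis effectors had a median of 0.26, which was -0.21 without vitrification 1, with TNFRSF21 called of 23. CAPNS1 and TNFRSF21 were single calls in their lists, against 1.25% of all genes called higher. Apoptosis inhibitors had a median of 0.53 and no call among 12, and XIAP, which blocks caspases, was at 1.11 to 2.02 FPKM and at 3.58 and 12.2 (adjusted p = 0.109). BAX was at 2.66 to 6.90 and at 2.95 and 3.11. Immediate early genes had a median of 0.01 and no call among 19. The list of p53 targets and DNA repair gave 0.17 with none of 28 called, and CDKN1A was at 41.8 to 158 FPKM in the controls and at 68.0 and 82.4.

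The cytoskeleton list, with 36 genes, had a median of -0.50 that turned to 0.07 after quantile normalization and to 0.14 without vitrification 2. Metabolic lists had no call, with medians of -0.37 for 16 glycolysis genes (-0.02 after quantile normalization, -0.07 without vitrification 2), -0.18 for 28 genes of lipid storage and oxidation (-0.09 after quantile normalization) and -0.16 for 21 genes of cholesterol synthesis (0.16 after quantile normalization). SCD, which puts the double bond into stearic acid, was at 24.5, 23.7 and 30.4 FPKM in the controls and at 101 and 131 after vitrification, with an adjusted p of 0.0515.

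**Figure D4:**
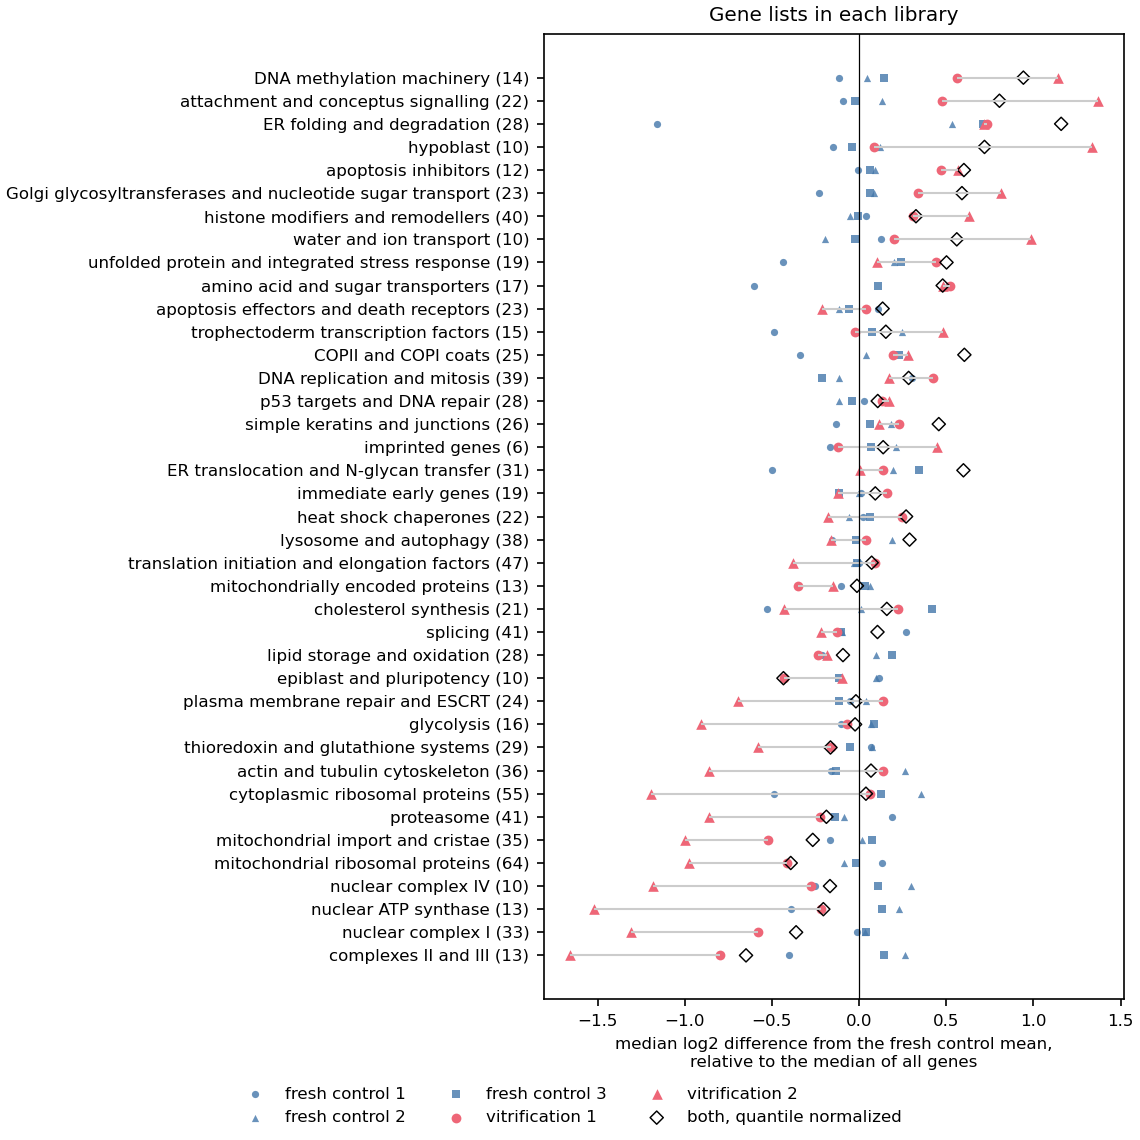
Median log2 difference from the control mean, relative to all genes, for each list in 5 libraries, with the number of genes kept in brackets and the value after quantile normalization as a diamond. Vitrification 1 and 2 both lie beyond all controls for DNA methylation, attachment, Golgi, complex I and mitochondrial ribosome genes, whereas for ER folding only control 1, at -1.16, stands apart.

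Of the 25 fixed genes with an identifier, IGF2R was the only one called. KRT8 was at 6343 to 10329 FPKM in the controls and at 12861 and 4091, so the vitrification libraries lay on opposite sides of the controls. GATA3 (21.1 to 42.6 against 21.1 and 34.3), AQP3, a water channel of the trophectoderm (133 to 799 against 360 and 425), DDIT3, the stress factor CHOP (37.2 to 112 against 87.7 and 60.0), and BCL2L1 (6.90 to 16.9 against 13.7 and 9.46) overlapped between the groups. GATA6, a hypoblast factor, was at 10.2 to 18.6 FPKM and at 17.5 and 39.9. A p that misses the threshold does not show that these genes were alike.

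The vitrification group was also tested directly against each of the other vitrified groups, which shows where its values differ from them. Over all genes 530 (5.63%) were called against vitrification I and 563 (5.98%) against vitrification II. The counts fell to 7 and 56 without vitrification 1, and to 98 and 8 without vitrification 2. The changes here are relative to medians of all genes of 0.26 against vitrification I and -0.46 against vitrification II. Of these calls, 416 were higher and 114 lower against vitrification I, and 88 were higher and 475 lower against vitrification II. Among the 15 largest rises, 2 were called higher against vitrification I and 8 against vitrification II, and none was called lower. The 15 were chosen for high values in the same vitrification libraries, which favours higher calls here too.

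EIF3F, EDEM1 and ATP2A2 had similar means in vitrification and vitrification I and were lower in vitrification II. EIF3F had a mean of 34.3 ± 0.7 FPKM in the vitrification group (SD, n = 2), of 30.7 ± 0.9 in group I (n = 3) and of 5.11 ± 1.59 in group II (n = 3), and the vitrification group was higher than vitrification II by 3.02 (adjusted p = 0.00978). EDEM1 had 17.5 ± 9.9, 11.7 ± 2.2 and 2.76 ± 0.75 FPKM in that order, with a change of 2.66 against vitrification II (adjusted p = 0.0224). ATP2A2 had 20.3 ± 15.3, 20.9 ± 3.2 and 3.06 ± 0.67 (2.64, adjusted p = 0.0224). SEC24D, B4GALT5, RAC1, PABPC1 and BTBD2 were the other 5 called higher than in vitrification II.

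BTBD2 and DUSP5 were the 2 called higher than in vitrification I. BTBD2 had 12.4 ± 3.1 FPKM in vitrification, 1.42 ± 1.54 in group I and 2.49 ± 0.86 in group II, with changes of 2.39 (adjusted p = 0.0110) and 2.41 (adjusted p = 0.0331). NCK2, outside the 15 largest rises, was likewise higher than in both, with 5.77 ± 0.08 FPKM against 0.982 ± 0.390 and 1.55 ± 0.32 (adjusted p = 0.0115 and 0.0308). DUSP5 had 20.1 ± 11.8, 4.04 ± 2.72 and 32.2 ± 9.1, with adjusted p = 0.0384 against vitrification I and 0.381 against vitrification II. HSD17B1 was listed at 0 in all vitrification I libraries and had 23.3 ± 7.3 FPKM in vitrification II, above the 5.30 ± 0.21 of the vitrification group (adjusted p = 0.00290 and 0.0188).

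None of the 8 largest falls was called against vitrification I, and NDUFS6 was the 1 called against vitrification II. Over all genes 475 of the 563 calls against vitrification II were lower. The 8 were also chosen for low values in the same vitrification libraries. TXN2 had 9.67 ± 1.69 FPKM in vitrification, 4.53 ± 2.35 in group I and 23.1 ± 4.2 in group II, with adjusted p of 0.146 and 0.0932. CHCHD10 had 12.3 ± 4.0, 11.8 ± 3.6 and 24.1 ± 12.9 in the same order (adjusted p = 0.953 and 0.240). For CHCHD10 the change against vitrification I was -0.20 ± 0.45. NDUFS6 had 2.29 ± 0.58 FPKM in vitrification, 4.88 ± 4.33 in group I and 33.2 ± 10.3 in group II (-2.88 ± 0.60 against the last, adjusted p = 0.0135). MRPL57 and LIN28A, which were not called against the fresh control, were also lower than in vitrification II, at 6.23 ± 0.54 against 57.0 ± 8.3 and 1.96 ± 1.59 against 50.6 ± 28.9 FPKM (adjusted p = 0.00367 and 0.00258).

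**Figure D5:**
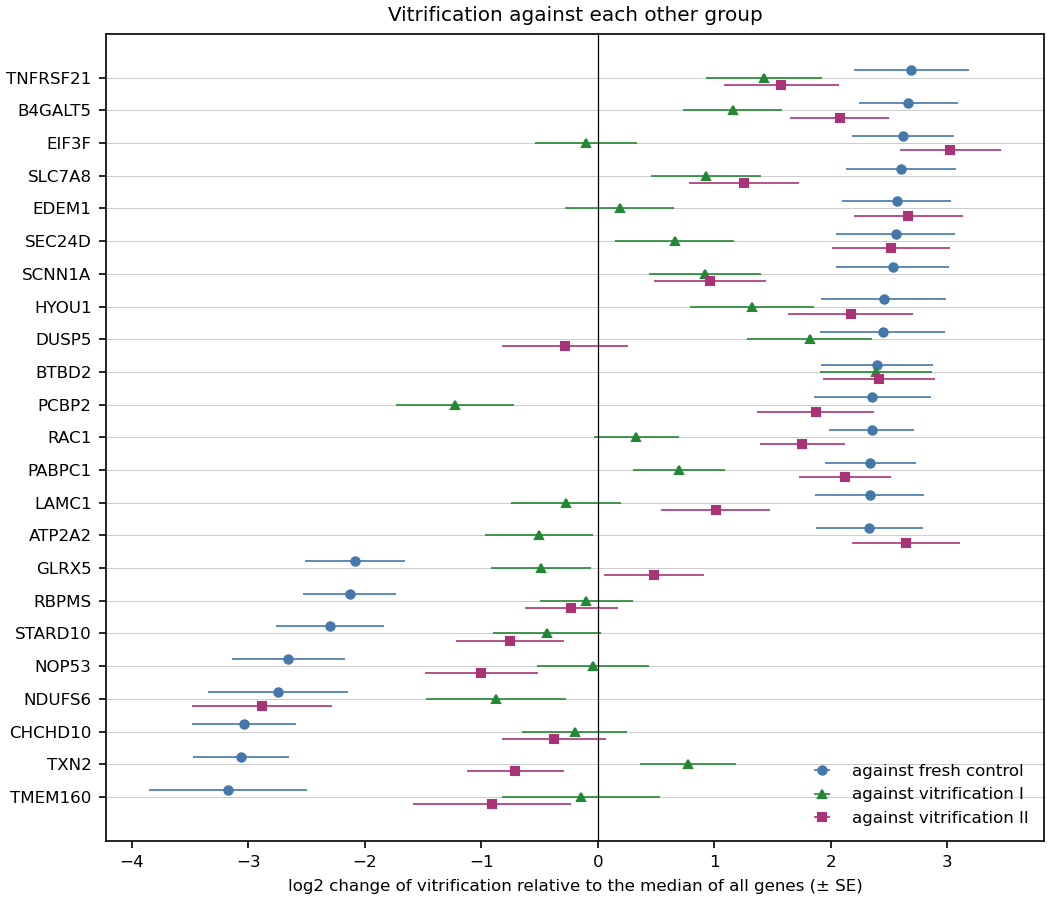
Log2 change ± SE of the vitrification group, relative to the median of all genes, against fresh control (blue), vitrification I (green) and vitrification II (purple) for the 15 largest rises and 8 largest falls. Against fresh control all values lie beyond 2 on either side, while against vitrification I the falls range from -0.87 to 0.78 and EIF3F is at -0.10 there and at 3.02 against vitrification II.

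Some genes not called against the fresh control were called against another vitrified group. AQP3 had a mean of 392 ± 46 FPKM in the vitrification group and 52.3 ± 13.2 in vitrification I (2.66 ± 0.55, adjusted p = 0.0123). KRT8 (8476 ± 6202 against 2075 ± 1186, adjusted p = 0.0406), GPX1 (38.3 ± 0.3 against 10.4 ± 7.1, adjusted p = 0.0301) and RBM3 (217 ± 4 against 73.3 ± 27.8, adjusted p = 0.0428) were also higher than in vitrification I. MSX2 was lower, with 8.34 ± 4.22 FPKM against 39.8 ± 5.2 (-2.45 ± 0.41, adjusted p = 0.0115). COX1 and ND5 were higher than in vitrification II by 2.23 ± 0.34 and 1.70 ± 0.33 (adjusted p = 0.0161 and 0.0402). ND5 was also higher than in vitrification I (1.08 ± 0.33, adjusted p = 0.0302), while COX1 was not called there (adjusted p = 0.207). The comparisons with the fresh control and with the other vitrified groups share the vitrification libraries, so they are not independent of each other.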

How the data were processed

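The authors deposited FPKM values for 31781 Ensembl pig gene identifiers in 11 libraries. The tools listed in the submitters' processing notes, with no role given, are Cufflinks 2.2.1, TopHat2 2.0.13, DESeq2 and FastQC, and the genome build is not given in the sources used here. The design expected 3 vitrification libraries and 2 had a column. There were 0 other columns of sample values and 0 identical pairs. FPKM was analysed as log2(FPKM + 1) without rescaling. limma 3.58.1 (R 4.3.3, eBayes with trend) estimated a mean for each of the 4 groups from the 11 libraries together, and the moderated two-sided test was adjusted by Benjamini-Hochberg over the 9411 genes kept, of which 8158 (86.7%) had a symbol. Scripts were tested on simulated data. SDs are between libraries.

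The genes named were the 16 largest rises and up to 10 largest falls among called genes with a symbol, at least 5 FPKM in the higher group and no overlap. To these were added up to 3 called members of each of 43 gene lists, else the 2 with the smallest p as values, the 10 genes called under most of 19 alternatives, and a fixed set of lineage, stress and epigenetic genes. Some genes that the rule names are not reported here. The genes and lists were chosen with earlier results of these data known. Lists are described by counts and medians, without a set test. Genomic spans came from RefSeq (Sscrofa11.1) by symbol for 81.1% of the genes kept and 81.4% of those called higher, but for 72.7% of those called lower, so span was not read for the latter. The alternatives changed the pseudocount (0.1), the filter, the scaling, the weights of libraries, the libraries fitted, the replicate block, or left out each library in turn.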

Additional observations from a re-analysis of the deposited data

How the results depend on the processing

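For vitrification against fresh control, a pseudocount of 0.1 gave 68 calls (64 higher, 4 lower), no filter 656 (628 and 28), a filter on every library of 1 of the groups compared 436 (401 and 35), array weights 677 (593 and 84) and a fit to these groups alone 0 (0 and 0). The total outside the mitochondrial genome gave 6 lower calls, and quantile normalization gave 69 higher and 29 lower. Leaving out each library in turn gave 0 to 222 calls, 0 to 211 higher and 0 to 19 lower. Against vitrification I, no filter gave 921 calls, the filter within a group 912 and the fit to both groups alone 176, with 7 to 825 on leaving out libraries. Against vitrification II, the pseudocount of 0.1 gave 48 calls, no filter 944, the filter within a group 886, the total outside the mitochondrial genome 99, quantile normalization 330 and the fit to both groups alone 1060, with 8 to 912 on leaving out libraries. The cause of these shifts was not tested. Differences of library measures that changed sign on leaving out libraries ranged from -1.16 to 11.9 percentage points for the mitochondrially encoded share and from -2.53 to 0.56 for the ribosomal protein share. On the log2 scale they ranged from -0.61 to 0.23 for epiblast, -0.33 to 0.29 for leukocyte and erythroid and -0.047 to 0.064 for maternal oocyte markers.

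With the number in the titles as a replicate block, 55 genes were called against fresh control (46 higher, 9 lower), 50 of them among the 129, and 296 against vitrification I. Whether the numbers pair libraries could not be decided. Deviations from the group means correlated by -0.01 and -0.08 between control and vitrification libraries of the same number. With 2 vitrification libraries, however, these deviations mirror each other, so different numbers give the same values with the opposite sign. Across all groups, same-numbered libraries had correlations from -0.16 to 0.14. The precision is limited by 2 vitrification libraries and unknown depth.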
